A study of Oryza sativa with 12 samples.

Results

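The sucrose transporters described here are 7 rice loci, 5 of the SWEET family (SWEET11 to SWEET15) and 2 of the SUT family (SUT1 and SUT2), out of 55986 loci counted in each library. They were chosen by name and locus identifier: SWEET11 (LOC_Os08g42350, chromosome 8), SWEET12 (LOC_Os03g22590, chromosome 3), SWEET13 (LOC_Os12g29220, chromosome 12), SWEET14 (LOC_Os11g31190, chromosome 11), SWEET15 (LOC_Os02g30910, chromosome 2), SUT1 (LOC_Os03g07480, chromosome 3) and SUT2 (LOC_Os12g44380, chromosome 12). These loci and the gene lists used below were chosen with earlier results of these data known. Their counts and medians beside those of all loci are therefore description. The files hold locus identifiers alone, so each name is an assignment. The gene table held all 7 names, each on the chromosome of its locus identifier, and held the name SUT2 also on 1 other chromosome. A name assigned to a neighbouring locus would not be detected by this check.

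Messenger RNA was sequenced from rice (Oryza sativa) labelled leaf, although the extraction protocol speaks of seedlings. Wild type and idr1-1 plants were each sampled as control and under drought, which made 4 groups of 3 libraries labelled as biological replicates. Every plant was of the upland cultivar IAPAR9, 5 weeks old and grown in concrete tanks. Control plants were not stressed, and drought plants were sampled when soil moisture had dropped to 10%. The mutant is a single line with the allele idr1-1, which the study is known to place in RGA1, a gene for the alpha subunit of a G protein complex. Nothing in the labels says how many plants made up a replicate or how the libraries were divided into batches.

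SWEET proteins let sugars pass through a membrane down their gradient, and the clade that holds SWEET11 to SWEET15 carries sucrose. In leaves such exporters release sucrose into the cell wall space next to the phloem. SUT proteins then take sucrose up together with protons: SUT1 sits in the plasma membrane and is known for loading and retrieving sucrose in the phloem, and SUT2 sits in the vacuolar membrane and lets stored sucrose out. In rice, SWEET11 and SWEET15 are also known for feeding the developing grain, and bacterial blight pathogens switch on SWEET11, SWEET13 or SWEET14 to obtain sugar from the leaf.

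Library totals ran from 19100254 to 25109639 counts. Levels are given as normalised CPM, that is counts divided by the library size after scaling by TMM factors, as mean ± SD over 3 libraries, and they compare libraries within a gene, not genes with each other. In both treatments idr1-1 had less RGA1 (LOC_Os05g26890), at 11.9 ± 0.699 against 28.6 ± 3.10 CPM in control and 12.5 ± 1.55 against 25.3 ± 1.49 CPM in drought (n = 3 per group). The leaf genes CAB1R and RCA summed to 11555 to 26557 CPM in every library, the shoot apex gene OSH1 reached at most 0.0486 CPM, 4 inflorescence genes summed to at most 4.30 CPM, and the root gene LSI1 lay between 3.94 and 20.3 CPM. The library idr1-1 drought replicate 3 stood apart from its group: its log2 CPM correlated with replicates 1 and 2 at 0.966 and 0.951 across genes, which are not independent replicates. Results that rest on it are given with and without it. In these bulk samples, fewer cells of a type and less RNA per cell cannot be told apart. Where groups of 3 libraries are said not to overlap, this is description. The share of all loci without overlap was not counted.

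A gene was called where edgeR's quasi-likelihood test over all 12 libraries gave a Benjamini-Hochberg adjusted p under 0.05 over the 22833 loci that passed the filter on low counts. Of the 7 transporters, 6 passed. SWEET12, a further member of the sucrose clade, did not: it had 1 count in all, in wild type drought replicate 3, where that is 0.0456 CPM. With 0 counts in 3 libraries, the limit of 3 counts allows up to 0.0451 CPM in wild type control, 0.0498 CPM in idr1-1 control and 0.0475 CPM in idr1-1 drought, counting error only. No difference between groups was detectable for SWEET12 at this depth.

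How leaves of the wild type changed under drought is the first question. SWEET11, SWEET13, SWEET15 and SUT1 rose and none of the 6 tested transporters fell, while SWEET14 and SUT2 did not pass the test. Of all loci tested 43.9% were called in this comparison, 22.4% higher and 21.5% lower. The median log2 fold change was 1.68 over the 6 transporters and 0.00 over all loci. The sizes ran from 1.70-fold for SUT1 to 52.8-fold for SWEET15.

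Markers of other cells and organs also moved with drought. Of the 2 leaf genes, RCA rose (log2 fold change 1.62 in wild type, 1.41 in idr1-1) and CAB1R did not pass (0.26 and 0.22). Their sum ranged from 11555 to 15905 CPM in wild type control and from 19820 to 22148 CPM in wild type drought. In idr1-1 the sums overlapped, at 16070.8 to 17334.5 CPM in control and 16355.1 to 26557.4 CPM in drought. Of 4 inflorescence genes, 2 were tested: MADS14 fell in both genotypes (-5.78 and -4.95) and MADS1 in wild type (-3.74), a call lost without wild type control replicate 2 (adjusted p = 0.1) or any wild type drought replicate (0.054 to 0.075). The inflorescence sum ranged from 1.81 to 4.22 CPM in wild type control and 0.0456 to 0.116 CPM in wild type drought, and from 2.62 to 4.30 CPM and 0 to 0.778 CPM in idr1-1, with 1 of the 4 genes at 0 in 3 groups and 2 of the 4 at 0 in idr1-1 drought. The root gene LSI1 lay between 14.7 and 18.9 CPM in wild type control and between 7.19 and 9.96 CPM in wild type drought, without overlap (log2 fold change -0.89, adjusted p = 0.079), and between 18.8 and 20.3 CPM and 3.94 and 18.5 CPM in idr1-1 (-0.73, adjusted p = 0.15). The part of these markers in the transporter results was not tested.

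**Figure D1:**
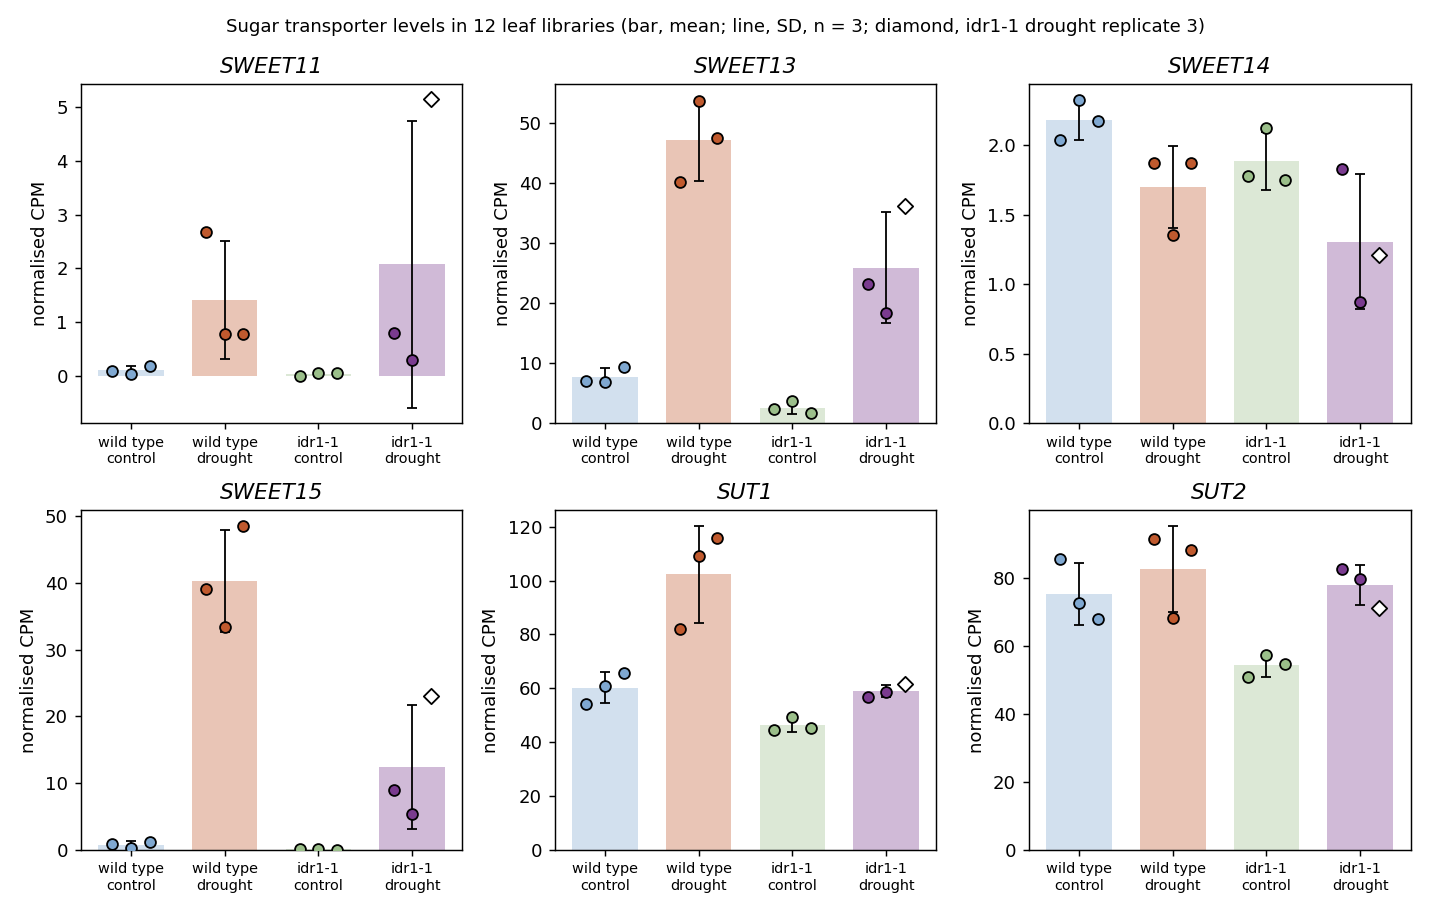
Normalised CPM of the 6 tested transporters in each library (points), with the group mean (bar, from 0) and SD (line, n = 3); each panel has its own axis, and the diamond is idr1-1 drought replicate 3. SWEET11, SWEET13 and SWEET15 are higher in all 6 drought libraries than in any control library. In the SWEET11, SWEET13, SWEET15 and SUT1 panels the diamond lies above the other idr1-1 drought libraries.

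SWEET15, an exporter whose Arabidopsis counterpart is known from senescing leaves, had the largest fold change of the 6. In replicates 1 to 3, wild type control libraries held 0.841, 0.258 and 1.21 CPM and wild type drought libraries 39.0, 33.3 and 48.5 CPM. All 3 drought libraries therefore lay far above all 3 control libraries. The log2 fold change was 5.72 (SE 0.58, adjusted p = 1.7e-05), which placed it 123rd from the top among the 22833 loci ordered by fold change. The counts behind it were 50 in control and 2841 in drought.

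SWEET13, a sucrose exporter that blight bacteria are known to switch on, started from a level that all libraries could measure. Wild type control libraries held 7.12, 6.84 and 9.37 CPM and wild type drought libraries 40.2, 53.7 and 47.5 CPM. The groups did not overlap, and the log2 fold change was 2.60 (SE 0.27, adjusted p = 2.3e-05), or 6.07-fold. SWEET13 ranked 606th from the top.

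SWEET11, the exporter encoded at the blight resistance locus Xa13, was near the limit of counting in control leaves. It had 2, 1 and 4 counts in the wild type control libraries, or 0.0885, 0.0430 and 0.193 CPM, and 63, 20 and 17 counts in drought, or 2.68, 0.775 and 0.774 CPM. Every drought library was above every control library, and replicate 1 was the highest of the 3 drought libraries. The log2 fold change was 3.67 (SE 1.15, adjusted p = 0.022), and the ratio of summed counts was 13.3 (95% Clopper-Pearson interval 6.24 to 34.0, counting error only). The call was lost without wild type drought replicate 1 (log2 fold change 2.81, adjusted p = 0.092), without wild type control replicate 1 (3.55, adjusted p = 0.072) or without wild type control replicate 2 (3.28, adjusted p = 0.077), and without wild type control replicate 3 the value was 4.32 (adjusted p = 0.044).

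SUT1, which takes sucrose up across the plasma membrane, had a smaller fold change than the 3 exporters that rose. Its wild type control libraries held 54.2, 60.8 and 65.8 CPM and its wild type drought libraries 82.0, 109 and 116 CPM, with no overlap between the groups (log2 fold change 0.76, SE 0.12, adjusted p = 0.00047). SUT2, the vacuolar transporter, held 85.4, 72.6 and 67.9 CPM in wild type control and 91.4, 68.2 and 88.2 CPM in wild type drought. These ranges overlapped, and the log2 fold change of SUT2 was 0.13 (95% interval -0.14 to 0.40, adjusted p = 0.41). SWEET14, the other exporter among the blight targets, gave 2.04, 2.32 and 2.17 CPM in control and 1.87, 1.36 and 1.87 CPM in drought. Its groups did not overlap, the drought libraries being lower, yet the log2 fold change of -0.36 (95% interval -0.91 to 0.19, adjusted p = 0.27) did not pass the test.

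The same question in idr1-1 gave 5 transporters higher and 0 lower of the 6 tested, against 35.6% of all loci called (18.0% higher, 17.6% lower). The median log2 fold change was 1.93 over the 6 transporters and 0.01 over all loci. SWEET11, SWEET13, SWEET15, SUT1 and SUT2 rose, and SWEET14 did not pass the test.

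SWEET15 was almost absent from idr1-1 control libraries, with 2, 1 and 0 counts. That is 0.0936, 0.0531 and 0 CPM, against 8.95, 5.35 and 23.0 CPM in the idr1-1 drought libraries. The 3 drought libraries lay above the 3 control libraries, with replicate 3 the highest. The log2 fold change was 7.81 (SE 0.90, adjusted p = 5.5e-05), and the ratio of summed counts was 256 (95% Clopper-Pearson interval 87.2 to 1243), or 143 (48.5 to 698) without replicate 3. SWEET15 ranked 38th from the top in this comparison. The fitted value was 7.003 without idr1-1 drought replicate 3 and 8.63 without idr1-1 control replicate 1.

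SWEET13 held 2.34, 3.71 and 1.65 CPM in idr1-1 control and 23.2, 18.4 and 36.2 CPM in idr1-1 drought. The groups were far apart, with a log2 fold change of 3.34 (SE 0.31, adjusted p = 1.1e-05), or 10.1-fold. SWEET11 had 0, 1 and 1 counts in idr1-1 control and 16, 6 and 115 counts in drought, where the CPM values were 0.791, 0.292 and 5.15. Most SWEET11 counts of this group were therefore in replicate 3. The log2 fold change of SWEET11 was 5.75 (SE 1.37, adjusted p = 0.0068) with all libraries and 3.80 (adjusted p = 0.019) without replicate 3, and the ratio of summed counts was 65.4 (95% Clopper-Pearson interval 17.8 to 545) with all libraries and 16.2 (3.99 to 142) without replicate 3.

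Both SUT genes moved little compared with the 3 exporters that rose. SUT2 held 50.7, 57.2 and 54.8 CPM in idr1-1 control and 82.5, 79.7 and 71.2 CPM in idr1-1 drought, without overlap. Its log2 fold change was 0.52 (SE 0.12, adjusted p = 0.0071). SUT1 held 44.4, 49.3 and 45.3 CPM in control and 56.8, 58.8 and 61.5 CPM in drought, again without overlap. Its log2 fold change of 0.35 (SE 0.12, adjusted p = 0.046) lay at the threshold. Of 19 alternative settings, 12 put SUT1 above the threshold, with adjusted p from 0.015 to 0.13 over all of them. They include leaving out any single control library of either genotype, wild type drought replicate 2 or any idr1-1 drought library. SWEET14 was 1.78, 2.12 and 1.75 CPM in idr1-1 control and 1.83, 0.875 and 1.21 CPM in idr1-1 drought. The ranges overlapped (log2 fold change -0.53, 95% interval -1.10 to 0.04, adjusted p = 0.14), and without idr1-1 drought replicate 1 the value was -0.85 (adjusted p = 0.026).

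**Figure D2:**
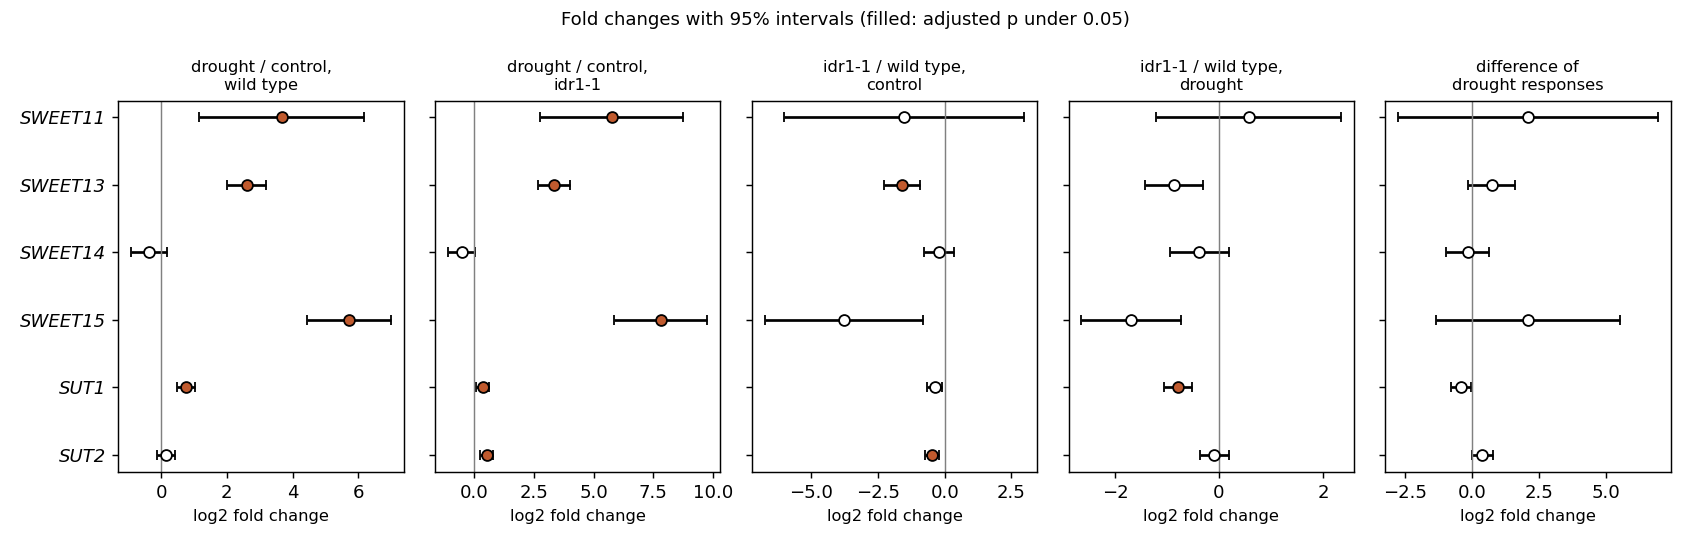
Log2 fold changes (points) with 95% intervals (lines) of the 6 tested transporters in the 5 comparisons, from edgeR's quasi-likelihood fit of 12 libraries; filled points have an adjusted p under 0.05. The drought panels hold 4 filled points in wild type and 5 in idr1-1, the genotype panels 2 in control and 1 in drought, and the last panel 0.

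The third comparison asks how the genotypes differed without stress. All 6 tested transporters had a fold change below 0 in idr1-1 control leaves, but only SWEET13 and SUT2 fell by the test. Of all loci 10.5% were called, 5.54% higher and 4.93% lower in idr1-1. The median log2 fold change was -0.99 over the 6 transporters and 0.00 over all loci. That median lies between SUT2 (-0.47) and SWEET11 (-1.51), and the SWEET11 value rests on 7 and 2 counts. By library size alone, without TMM factors, 599 loci were higher and 838 lower, against 1266 and 1125 with TMM. This background moved with single libraries, from 207 loci called without idr1-1 control replicate 3, 292 and 512 without wild type control replicates 1 and 3 and 643 without idr1-1 control replicate 1, to 4557 without idr1-1 drought replicate 3. At an unadjusted p under 0.05, 4 of the 6 transporters were lower and 0 higher, where 13.9% of all loci were lower and 14.9% higher.

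SWEET13 in idr1-1 control libraries reached at most 3.71 CPM, and in wild type control libraries at least 6.84 CPM. The idr1-1 mean was 33.0% of the wild type mean (log2 fold change -1.60, SE 0.31, adjusted p = 0.015). The adjusted p moved above the threshold without wild type control replicate 1 (0.052) or 3 (0.056), or without idr1-1 control replicate 1 (0.057) or 3 (0.069), where the log2 fold change stayed between -1.67 and -1.37. SWEET15 had 50 counts over the wild type control libraries and 3 over those of idr1-1, a ratio of 15.1 (95% Clopper-Pearson interval 4.87 to 75.6). Its groups did not overlap, with at least 0.258 CPM in wild type and at most 0.0936 CPM in idr1-1. The edgeR log2 fold change of -3.78 (SE 1.35, adjusted p = 0.093) did not pass the test. It did pass without idr1-1 drought replicate 3 (adjusted p = 0.017) and with DESeq2 (0.0045).

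SUT2 in idr1-1 control was 72.1% of wild type, and its idr1-1 libraries, at most 57.2 CPM, did not reach the wild type ones, at least 67.9 CPM (log2 fold change -0.47, SE 0.12, adjusted p = 0.037). This call was lost when any 1 control library of either genotype was left out, or wild type drought replicate 3, with adjusted p from 0.051 to 0.13. SUT1 was 76.9% of wild type, also without overlap, with a log2 fold change of -0.38 (95% interval -0.65 to -0.11, adjusted p = 0.071). The SUT1 difference passed without idr1-1 drought replicate 3 (adjusted p = 0.047) or wild type drought replicate 1 (0.039), with DESeq2 (0.038) and with only the 2 control groups fitted (0.025). SWEET14 (log2 fold change -0.21, 95% interval -0.76 to 0.34, adjusted p = 0.62) and SWEET11 (-1.51, 95% interval -6.00 to 2.98, adjusted p = 0.67) overlapped between the genotypes. For SWEET11 this rests on 7 and 2 counts.

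Genes of the secondary cell wall also differed between groups. The sum of CESA4, CESA7 and CESA9, cellulose synthases of the secondary wall in vascular and fibre cells, ranged from 26.6 to 38.1 CPM in wild type control and from 3.80 to 14.9 CPM in idr1-1 control. It ranged from 26.3 to 43.4 CPM in wild type drought and from 46.8 to 72.8 CPM in idr1-1 drought. All 3 rose with drought in idr1-1 (all loci 18.0%), and none was at 0 in any group. With drought in wild type, where SWEET13 and SWEET15 rose, 0 of the 3 were called. All 3 were called lower in idr1-1 control (all loci 4.93%). Each of these calls was lost without wild type control replicate 1 or without idr1-1 control replicate 1 or 3. Those of CESA7 and CESA9 were also lost without wild type control replicate 3 (adjusted p from 0.05 to 0.079 over these losses). Between the genotypes in drought edgeR and DESeq2 each called 0 of the 3. Their log2 fold changes were 0.77 to 0.90, above 0, where those of SWEET13, SWEET15 and SUT1 were below 0. At an unadjusted p under 0.05, 2 of them were higher in idr1-1 (all loci 7.04%). For the difference of the drought responses all 3 were higher in idr1-1, by 2.85 to 2.93 on the log2 scale. By edgeR they were not called (adjusted p from 0.069 to 0.081), and by DESeq2 they were, with 437 of 22833 loci called higher. Their part in the transporter results was not tested.

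The fourth comparison asks how the genotypes differed under drought. SUT1 was the single transporter that passed the test, lower in idr1-1, against 0.184% of all loci called (0.0438% higher, 0.140% lower). The fold changes of 5 of the 6 were below 0, with a median of -0.59 against 0.01 over all loci, and at an unadjusted p under 0.05, 3 were lower and 0 higher, where 6.60% of all loci were lower and 7.04% higher. By library size alone 2 loci were higher and 16 lower, against 10 and 32 with TMM. The balance of directions was not stable: 397 were higher and 109 lower without idr1-1 drought replicate 2, 509 and 565 without replicate 3, and 284 and 271 with DESeq2.

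SUT1 was at least 82.0 CPM in wild type drought and at most 61.5 CPM in idr1-1 drought. Unlike SWEET11, SWEET13 and SWEET15, it was similar in the 3 idr1-1 drought libraries after TMM scaling. Replicate 3 was 1.06 times the mean of the other 2. The TMM factors of these libraries were 0.890, 0.897 and 1.11 in replicates 1 to 3, and by library size alone SUT1 was not called. The idr1-1 mean was 57.7% of wild type (log2 fold change -0.79, SE 0.12, adjusted p = 0.039). The size stayed between -0.70 and -0.94 over 19 alternatives, but 11 of them put the adjusted p over the threshold, up to 0.3 where the 2 drought groups alone were fitted. Those 11 include leaving out any control library of either genotype, wild type drought replicate 2 or 3, or idr1-1 drought replicate 1.

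SWEET13 and SWEET15 depended on idr1-1 drought replicate 3. SWEET15 in that library was 3.21 times, and SWEET13 1.74 times, the mean of replicates 1 and 2. For both genes every idr1-1 drought library lay below every wild type drought library, which is description without the share of all loci. With all libraries the log2 fold change was -1.69 for SWEET15 (SE 0.43, adjusted p = 0.13) and -0.86 for SWEET13 (SE 0.25, adjusted p = 0.18). Without replicate 3 both passed the test, with SWEET15 at -2.50 (adjusted p = 0.003) and SWEET13 at -1.19 (adjusted p = 0.016). SUT1 was then -0.83 (adjusted p = 0.01), so that 3 of the 6 were called lower, while the loci called in all went from 42 to 1074. Replicates 1 and 2 averaged 17.8% of the wild type drought mean for SWEET15 and 44.1% for SWEET13.

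SWEET11 turned direction with the same library. Replicate 3 held 9.51 times the mean of replicates 1 and 2, and the log2 fold change between genotypes was 0.57 (95% interval -1.20 to 2.34, adjusted p = 0.8) with it and -1.38 (adjusted p = 0.24) without it. Its ranges overlapped between the genotypes. SUT2 (log2 fold change -0.09, 95% interval -0.36 to 0.19, adjusted p = 0.81) and SWEET14 (-0.38, 95% interval -0.95 to 0.19, adjusted p = 0.57) also overlapped.

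**Figure D3:**
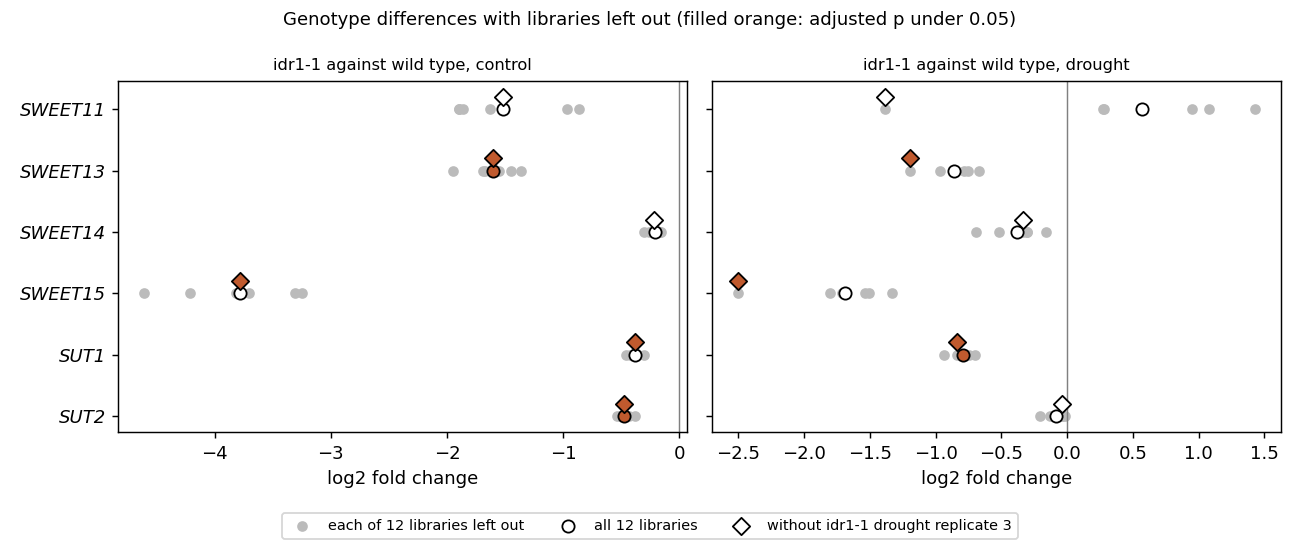
Log2 fold change of idr1-1 against wild type for each tested transporter in control (left) and drought (right): circles use all 12 libraries, grey points leave out 1 library each, and diamonds leave out idr1-1 drought replicate 3; orange means an adjusted p under 0.05. In drought the SWEET13 and SWEET15 diamonds move away from 0, to -1.19 and -2.50, and the SWEET11 diamond changes side, to -1.38.

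Whether the drought response itself differed between genotypes was tested as the difference of the responses, idr1-1 minus wild type. None of the 6 tested transporters passed edgeR's test, with 0.0482% of all loci called (0.0131% higher, 0.0350% lower). Those 3 higher and 8 lower loci became 490 and 92 without idr1-1 drought replicate 2, 223 and 266 without replicate 3, 157 and 84 without idr1-1 control replicate 2, 58 and 24 without the filter and 437 and 271 with DESeq2. At an unadjusted p under 0.05, 1 was higher and 1 lower (all loci 8.45% and 7.06%), and DESeq2 also called 0 of the 6. SUT1 gave -0.41 (95% interval -0.80 to -0.03, adjusted p = 0.28), a smaller rise in idr1-1, and SUT2 gave 0.39 (95% interval 0.00 to 0.77, adjusted p = 0.32), a larger one. SWEET13 gave 0.74 (95% interval -0.14 to 1.62, adjusted p = 0.41) and SWEET14 -0.17 (95% interval -0.96 to 0.62, adjusted p = 0.88). The intervals of SWEET15 (2.09, -1.35 to 5.53) and SWEET11 (2.09, -2.76 to 6.93) were wide, their idr1-1 control libraries holding 3 and 2 counts. Without idr1-1 drought replicate 3 these 2 values were 1.28 and 0.13, and SWEET13 was 0.41 (adjusted p = 0.54). That SUT2 passed the drought test in idr1-1 but not in wild type is therefore no shown difference between the genotypes.

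Set side by side, SWEET13 and SWEET15 had the 4 groups in one order: wild type drought highest, then idr1-1 drought, wild type control and idr1-1 control. No 2 of these groups overlapped, a description given without the share of all loci beside it. The means in that order were 47.1 ± 6.73, 25.9 ± 9.23, 7.78 ± 1.38 and 2.57 ± 1.05 CPM for SWEET13. For SWEET15 they were 40.3 ± 7.65, 12.4 ± 9.32, 0.769 ± 0.479 and 0.0489 ± 0.0469 CPM. SUT1 was highest in wild type drought (102 ± 17.9 CPM) and lowest in idr1-1 control (46.3 ± 2.63 CPM). Between them, SUT1 in wild type control (60.2 ± 5.83 CPM) and idr1-1 drought (59.0 ± 2.35 CPM) overlapped.

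SUT2 had a different order. Its idr1-1 control libraries (54.3 ± 3.29 CPM) lay below all others, and wild type control (75.3 ± 9.05 CPM), wild type drought (82.6 ± 12.6 CPM) and idr1-1 drought (77.8 ± 5.87 CPM) overlapped one another. SWEET11 separated by treatment, at 0.108 ± 0.0770 and 0.0344 ± 0.0298 CPM in wild type and idr1-1 control and 1.41 ± 1.10 and 2.08 ± 2.67 CPM in drought. SWEET14 spanned the narrowest fold range of the 4 tested SWEET members, from 1.31 ± 0.485 CPM in idr1-1 drought to 2.18 ± 0.145 CPM in wild type control. Between these lay idr1-1 control (1.88 ± 0.207 CPM) and wild type drought (1.70 ± 0.296 CPM), which overlapped.

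The likeness of patterns was measured as Pearson's r of log2 CPM with a prior count of 2, as a description. The libraries fall into a control and a drought set of 6 each, and the genotypes differ within each set, so r carries those splits. Between SWEET13 and SWEET15 r was 0.909 over the 6 control libraries and 0.957 over the 6 drought libraries. Leaving out idr1-1 drought replicate 3 left it at 0.957 over 5. SWEET13 and SUT1 gave 0.931 in control and 0.861 in drought, and SWEET15 and SUT1 0.816 and 0.818. SWEET13 and SUT2 gave 0.821 in control and -0.14 in drought.

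**Figure D4:**
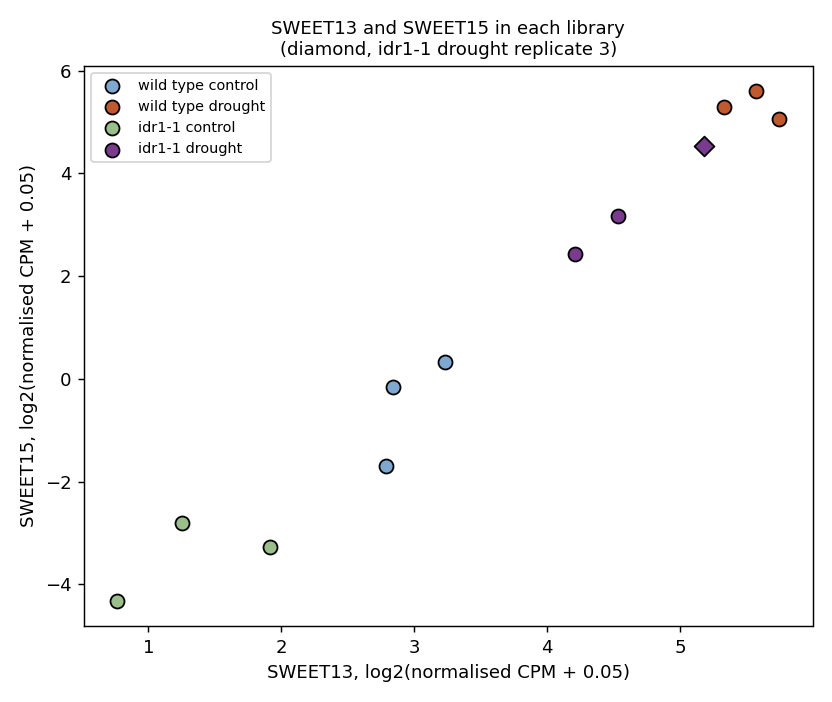
SWEET13 against SWEET15 in each of 12 libraries, both as log2(normalised CPM + 0.05); colours give the group and the diamond is idr1-1 drought replicate 3. The 4 groups occupy separate stretches from idr1-1 control at the lower left to wild type drought at the upper right, and the diamond is the idr1-1 drought library nearest to wild type drought.

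Among the sugar transport, invertase, regulator and marker loci listed, the one with the highest r over all 12 libraries was SWEET13 for SWEET15 (0.983), LOC_Os01g42110 for SWEET13 (0.985), SWEET16 for SWEET11 (0.948), LOC_Os01g42090 for SUT1 (0.855), CESA9 for SUT2 (0.824) and SWEET4 for SWEET14 (0.666). Over all 22833 loci it was LOC_Os02g48190 for SWEET15 (0.993) and LOC_Os03g16060 for SWEET13 (0.991). By r over all loci, the listed partner ranked 7th for SWEET15, 5th for SWEET13 and 31st for SWEET11. It ranked 73rd for SUT1, 116th for SUT2 and 775th for SWEET14, so many unlisted loci were closer to these. LOC_Os02g48190 averaged 1.42 ± 0.262 CPM in wild type control, 10.2 ± 2.42 in wild type drought, 0.712 ± 0.148 in idr1-1 control and 5.20 ± 2.17 in idr1-1 drought.

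The rest of the SWEET family moved in both directions with drought. Of 16 further loci assigned to the family, 11 were tested: 4 rose and 2 fell with drought in wild type, and 5 rose and 1 fell in idr1-1, with median log2 fold changes of 0.38 and 0.46. In each genotype 6 of 11 were called, where 43.9% and 35.6% of all loci were called. Of all loci 22.4% rose and 21.5% fell in wild type, and 18.0% rose and 17.6% fell in idr1-1. The 5 that rose in idr1-1 include SWEET2A (log2 fold change 1.35, adjusted p = 0.046), which was 0.83 (adjusted p = 0.19) without idr1-1 drought replicate 3 and also lost its call without any control library, any wild type drought library or idr1-1 drought replicate 1, and SWEET2B (1.34), whose call was lost without idr1-1 control replicate 1 or 3 (adjusted p = 0.054). None of the 11 was called by edgeR between genotypes. At an unadjusted p under 0.05, 4 were lower in idr1-1 and 0 higher in control (all loci 13.9% and 14.9%). In drought 1 was lower and 2 were higher (all loci 6.60% and 7.04%). DESeq2 called 2 lower in control, where it called 1699 of 22833 loci lower. In drought it called 1 higher and 1 lower, against 284 and 271 of all loci. The gene table held the names of 8 of the 16, and 7 of these were tested. SWEET16, whose Arabidopsis counterpart is a vacuolar sugar carrier, rose from 10.0 ± 1.27 to 29.4 ± 6.11 CPM in wild type (log2 fold change 1.55, SE 0.28) and from 7.40 ± 1.38 to 32.8 ± 14.8 CPM in idr1-1 (2.15, SE 0.29).

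SWEET1A fell in both genotypes, from 64.1 ± 4.12 to 22.0 ± 1.18 CPM in wild type (log2 fold change -1.54, SE 0.12) and from 58.8 ± 7.68 to 31.2 ± 4.46 CPM in idr1-1 (-0.92, SE 0.12). SWEET4, known in rice for moving hexoses into the grain, fell in wild type from 186 ± 54.9 to 80.5 ± 13.3 CPM (log2 fold change -1.21, SE 0.23) and did not pass the test in idr1-1 (-0.49, adjusted p = 0.12). SWEET1B rose by 1.00 (SE 0.19) on the log2 scale in wild type and 0.62 (SE 0.19) in idr1-1, where the call was lost without idr1-1 control replicate 1 or 2 or idr1-1 drought replicate 1 or 2 (adjusted p from 0.055 to 0.085). LOC_Os01g42110, which shares a table entry with LOC_Os01g42090, rose by 2.07 (SE 0.30) and 2.59 (SE 0.33). SUT4, another sucrose carrier, was the tested locus of 3 further SUT loci, and its drought changes of 0.21 (adjusted p = 0.061) in wild type and 0.10 in idr1-1 did not pass.

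Invertases split sucrose into glucose and fructose. Of 10 listed loci 6 were tested, and 3 rose and 0 fell with drought in each genotype, where 22.4% of all loci rose in wild type and 18.0% in idr1-1. LOC_Os02g01590, a listed locus that the gene table does not name, went from 7.59 ± 1.15 to 439 ± 53.8 CPM in wild type (log2 fold change 5.86, SE 0.38) and from 4.17 ± 2.37 to 243 ± 73.6 CPM in idr1-1 (5.87, SE 0.39). CIN7, a cell wall invertase, rose by 0.49 (SE 0.09) and 0.36 (SE 0.09) on the log2 scale. LOC_Os09g08120, which the table does not name either, rose by 2.96 (SE 0.68) and 1.41 (SE 0.50), the latter a call lost in 13 alternatives, among them leaving out idr1-1 drought replicate 3 (0.74, adjusted p = 0.26). Neither edgeR nor DESeq2 called any of the 6 between genotypes. At an unadjusted p under 0.05, 1 was higher and 1 lower in each treatment. The shares of all loci were 14.9% and 13.9% in control and 7.04% and 6.60% in drought.

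Hexose carriers had mixed results. Of 7 listed loci 5 were tested, with 1 higher and 3 lower under drought in wild type (all loci 22.4% and 21.5%). In idr1-1, 0 were higher, 2 lower and 3 not called (all loci 18.0% and 17.6%). DESeq2 called 4 of them lower there, as it did 4035 of 22833 loci. The 1 that rose, LOC_Os03g11900, lost its call without any wild type control replicate or without wild type drought replicate 2 or 3 (log2 fold change 0.39 to 0.59, adjusted p from 0.053 to 0.14). MST3, a monosaccharide carrier, fell from 33.3 ± 4.61 to 11.1 ± 0.613 CPM in wild type (log2 fold change -1.58, SE 0.26) and from 62.0 ± 17.2 to 13.6 ± 5.78 CPM in idr1-1 (-2.18, SE 0.26). Between genotypes in control 2 of the 5 were higher and 1 lower in idr1-1 (all loci 5.54% and 4.93%), and each of these 3 calls was lost without wild type control replicate 1 or 3 or without idr1-1 control replicate 3. In drought edgeR and DESeq2 called 0 of the 5, with 2 higher at an unadjusted p under 0.05 (all loci 7.04%). Of 4 listed regulators, 3 rose in each genotype, against the same shares of all loci. BZIP23, a transcription factor of abscisic acid signalling, rose by 2.37 (SE 0.13) in wild type and 2.34 (SE 0.13) in idr1-1 on the log2 scale.

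**Figure D5:**
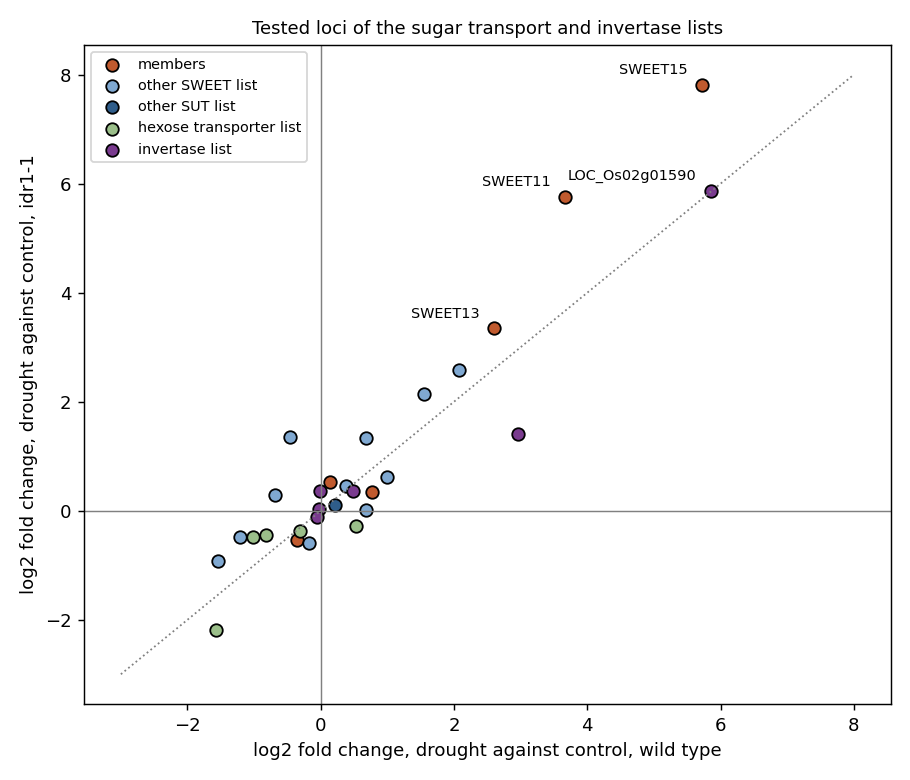
Log2 fold change under drought in wild type (x axis) and idr1-1 (y axis) for the tested loci of the sugar transport and invertase lists, coloured by list; the dotted line marks equal values, and the 2 axes use separate libraries. SWEET11, SWEET13, SWEET15 and LOC_Os02g01590 lie at the upper right, and MST3 lies at -1.58 and -2.18.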

How the data were processed

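The deposited values are estimated counts per locus in 1 file per library, not scaled to depth. Per the submitters' processing notes, HISAT2 2.1.0 and featureCounts 1.6.3 made them. Strandedness, annotation, counting options and genome build were not given in the sources used here. Between 13.3% and 14.8% of nonzero values were not whole. Values were rounded to whole numbers, which moved a library total by at most 0.00113%.

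In R 4.3.3, filterByExpr of edgeR 4.0.16 left 22833 loci. TMM factors and edgeR's quasi-likelihood test (12 libraries, 1 mean per group, 8 residual degrees of freedom) gave 5 comparisons, with Benjamini-Hochberg adjusted p over all loci tested. The standard error is the log2 fold change over the square root of F. Alternatives were DESeq2 1.42.0, other scalings, no filter, rounding down, the replicate number as a block, the 2 groups alone and each library left out. The steps were tested on simulated data. A limit of 3 counts is 0.119 to 0.157 CPM in a library.

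Names were checked by symbol and chromosome against a RefSeq gene table (assembly ASM3414082v1), which held 38 of 59 names and 0 of the locus identifiers. All 7 members are named, with listed genes that were called and those nearest in pattern. Members and lists were chosen with earlier results of these data known.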

Additional observations from a re-analysis of the deposited data

How the results depend on the processing

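Over 30 values (6 transporters in 5 comparisons) and 561 alternative values, 510 kept their direction and their side of the threshold, 38 lost a call, 10 gained one and 3 changed sign. The rises of SWEET13 and SWEET15 in both genotypes, SUT1 in wild type and SUT2 in idr1-1 kept their calls under every alternative run. The sign changed for SWEET11 between genotypes in drought (0.57) with the replicate block (-0.042) and without idr1-1 drought replicate 3 (-1.38), the range over libraries left out being -1.38 to 1.43. It also changed for SWEET14 in the difference of responses (-0.17) without idr1-1 drought replicate 2, with a range of -0.49 to 0.047. Called transporters between genotypes in control numbered 2, and 4 with DESeq2 and 3 with only the 2 groups (SWEET13, SUT1 and SUT2); leaving out libraries gave 0 to 4. In drought the number was 1, and 0 by library size alone or with only the 2 groups; leaving out libraries gave 0 to 3. The smaller fits hold fewer libraries, and the cause of these changes in number was not tested. Leaving out libraries gave 3 to 4 for drought in wild type, 4 to 5 in idr1-1 and 0 for the difference of responses.

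Deviations of same-numbered libraries from their group means correlated at r of -0.316 to 0.0784, so no pairing by number was seen. With 3 libraries per group and no batches in the labels, this check cannot exclude a shared batch. With the replicate block the called transporters numbered 4, 5, 2, 1 and 0 in the 5 comparisons, the 2 being SWEET13 and SWEET15 (adjusted p = 0.044) in place of SUT2 (0.065). Loci called between genotypes in control were 2391, and 3477 with DESeq2, 1112 with the block, 1437 by library size alone and 3822 with 2 groups. In drought they were 42, and 555, 14, 18 and 3, or 79 without the filter. For the difference of responses they were 11, and 708, 0 and 2, or 82 without the filter; the fit of 2 groups cannot give it. For drought in idr1-1 they were 8129, and 5580 with 2 groups. Fits of 2 groups dropped SWEET11 for drought in idr1-1, and SWEET11 and SWEET15 between genotypes in control. Count ratios and correlations without idr1-1 drought replicate 3, and correlations within a treatment, were chosen after seeing the data. Without molecular identifiers, limits and intervals cover counting error only, and SWEET11, SWEET12 and SWEET15 in control rest on few counts.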
